A study of Rattus norvegicus with 6 samples.

Results

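Genes of the inflammasome, of pyroptosis and of necroptosis were examined in neonatal rat cardiac fibroblasts (NRCFs), taken from newborn hearts and kept in primary culture. The set held 10 genes, taken by symbol from the 21857 symbols of the count files: Nlrp3, Pycard, Casp1, Casp4, Casp12, Gsdmd, Casp8, Ripk1, Ripk3 and Mlkl. All 10 passed the filter on low counts and were tested among 12941 genes. RNA-seq libraries came from 3 Vector samples, whose genotype label is WT and which received the empty pcDNA 3.1 plasmid, and from 3 samples labelled FTO overexpression, which received the same plasmid with the rat coding sequence of FTO, an enzyme that removes the m6A mark from RNA. Both groups were cells of healthy rats no more than 3 days old, and by the study's methods the plasmid was given at 1 µg/ml and the cells were collected after 48 h. The series text names the strain Sprague-Dawley, while the sample labels write Noway. Whether the sequenced cells were kept under hypoxia is not given in the sources used here. The labels do not say that the libraries of a group came from separate cultures or animals, so the p-values measure the spread between these libraries, which may be technical.

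An inflammasome is a protein platform that forms when a sensor such as NLRP3 meets signs of infection or damage. The sensor recruits the adaptor ASC, encoded by Pycard, which gathers and activates caspase-1. Caspase-1 matures the cytokines IL-1β and IL-18 and cuts gasdermin D, whose free end opens pores in the cell membrane, a lytic death called pyroptosis. Rodent caspase-11, encoded by Casp4, responds to bacterial lipopolysaccharide in the cytosol and also cuts gasdermin D. Necroptosis is another lytic death, in which RIPK1 and RIPK3 assemble through a shared interaction motif and RIPK3 phosphorylates MLKL, which then breaks the membrane. Caspase-8 restrains this route by cutting the RIP kinases. In the injured heart, fibroblasts and macrophages are both known to express inflammasome genes.

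The libraries held 13178952 to 17857999 counted reads. The level of Fto was 87.8, 89.6 and 87.4 CPM (read counts scaled to the normalized size of each library) in Vector replicates 1, 2 and 3 and 93.2, 90.8 and 92.9 CPM in replicates 1, 2 and 3 of the other group. The log2 fold change (log2FC, positive where the libraries labelled FTO are higher) was 0.06 (SE 0.0468, edgeR adjusted p = 0.239), so no change of Fto passed the test, although the CPM ranges were apart, and this group is named by its label below. The study reported that its FTO plasmid passed checks of transfection efficiency, by qRT-PCR in cardiac fibroblasts and by FTO protein. Whether the sequenced samples were part of those checks is not given. Among the marker lists, all 10 fibroblast markers were present, and their summed level ran from 41419 to 42004 CPM in Vector and from 21576 to 22559 CPM in the libraries labelled FTO. That sum followed its most abundant genes, such as Col1a1 (25809 and 8268 CPM on average), and the list was split, with 5 markers higher and 5 lower and a median log2FC of 0.06. Dcn rose 119-fold, Lum 8.87-fold and Pdgfra 5.63-fold. Macrophage markers were present too. Of 13 such markers in the files 12 were tested, 10 of which were lower and 2 (Adgre1 and Fcgr2b) higher in the libraries labelled FTO, and the summed level was 1795 to 1854 CPM against 339 to 378 CPM. Marco was at 0 in all 6 libraries, and C1qb and C1qc stayed at no more than 3 counts in each library labelled FTO. Cd68, Csf1r and Ptprc fell from 111, 142 and 55.0 CPM to 51.0, 9.18 and 15.1 CPM on average, while Adgre1 rose from 6.81 to 31.7 CPM. Cardiomyocyte markers summed to 1510 to 1543 and 2384 to 2476 CPM. Of these, 6 of 7 were higher and Tnnt2 was lower, at 770 and 649 CPM on average. Endothelial markers summed to 23.5 to 25.2 and 45.3 to 46.7 CPM. Among the 5 tested endothelial markers, 3 were higher, Erg was lower (4.81 and 1.63 CPM on average) and Tie1 did not pass the test. Lymphocyte and neutrophil markers summed to 33.0 to 35.1 and 8.42 to 9.77 CPM, a sum made up mostly of Cd4 (28.6 and 6.61 CPM on average). Of the 11 markers, 7 were at no more than 3 counts in all 3 Vector libraries, and 8 were so in all 3 libraries labelled FTO. The T cell gene Cd3e was at 0 in all 6 libraries, and Cd3g had no more than 1 count in any. Of the 3 tested, 2 were lower and 1 was higher, the neutrophil gene S100a8, at 0.276 and 1.95 CPM on average. In bulk RNA, fewer cells of a type and less RNA per cell cannot be told apart.

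**Figure D1:**
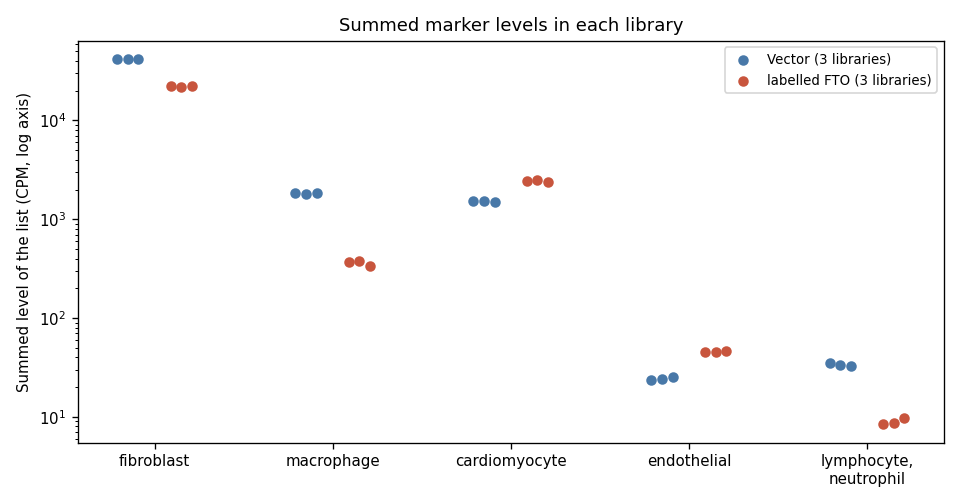
Summed CPM (log axis) of 5 lists of cell type markers in each of the 6 libraries, with 1 point per library. Macrophage markers lie between 1795 and 1854 CPM in Vector and between 339 and 378 CPM in the libraries labelled FTO, and the cardiomyocyte and endothelial sums are higher in the libraries labelled FTO.

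Of the 10 genes, 9 differed between the groups in edgeR, with 0.05 as the limit on the adjusted p-value. The genes higher in the libraries labelled FTO were Mlkl, Gsdmd, Casp1, Pycard, Casp8 and Ripk3, and the lower ones were Casp4, Casp12 and Nlrp3. Only Ripk1 did not pass. Over all tested genes 65.9% passed the same threshold, 33.2% as higher and 32.8% as lower, so 6 higher and 3 lower of 10 have to be read against that background. No overlap in CPM between the groups was seen for 9 of the 10 genes, against 70.3% of all tested genes. The study counted a gene as changed where its log2FC reached 1 in either direction and its p-value stayed below 0.05, taken here as unadjusted. Mlkl, Gsdmd and Casp1 passed it as higher, where 10.4% of all genes did, and 0 of the 10 passed it as lower, where 9.27% did. The median log2FC of the 10 genes was 0.34, with a range from -0.67 to 1.75, and that of all tested genes was 0.00.

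**Figure D2:**
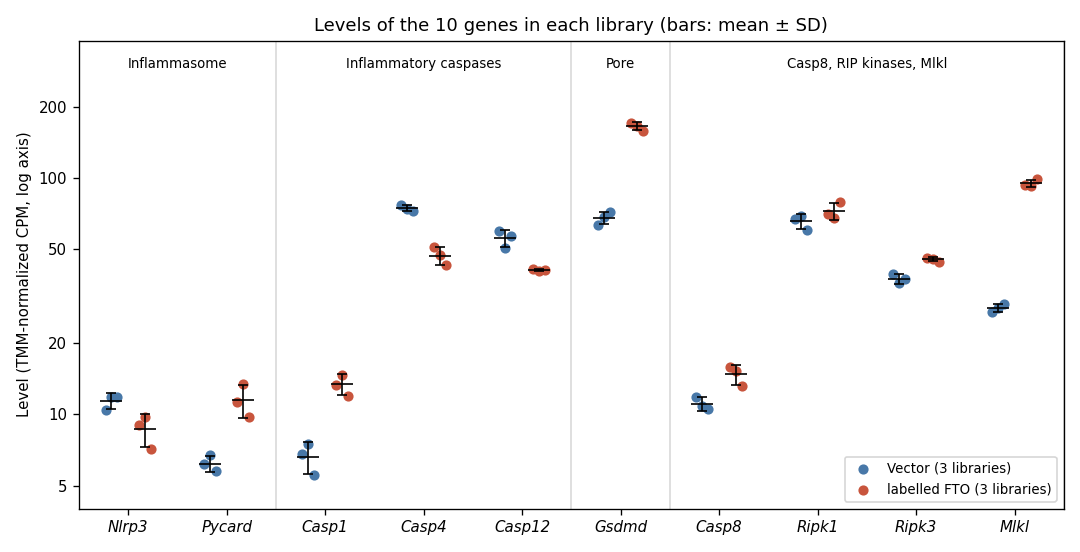
TMM-normalized CPM (log axis) of the 10 genes in each library, grouped by role, with 1 point per library and the mean ± SD of 3 libraries as black bars. Mlkl and Gsdmd show the widest separation of the groups, Casp4, Casp12 and Nlrp3 are lower in the libraries labelled FTO, and the points of Ripk1 overlap.

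The caspase genes of the set that lie side by side in the genome are introduced with their promoters. In the RefSeq gene table of build GRCr8, Casp4 lies between Casp1 and Casp12 on chromosome 8, with no other protein-coding gene between them. The RefSeq promoter table, which runs from 250 bases before to 50 bases after each start, held 7 of the 10 genes, and Casp4, Casp8 and Gsdmd were not among them. An ISRE-like motif, written TTTCNNTTTC and searched on both strands, is the kind of site that interferon regulatory factors and interferon-activated STAT complexes recognise. It was found in the windows of Casp1 and Casp12 and in 3.92% of all 33469 windows in the table. The 60 bases just before the start are shown for both, and for Mlkl and Pycard, which rose and whose windows did not hold these letters. Capitals mark the motif.
Casp1, chr8:10872770-10872829, plus strand: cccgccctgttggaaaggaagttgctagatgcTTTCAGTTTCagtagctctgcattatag
Casp12, chr8:10927128-10927187, plus strand: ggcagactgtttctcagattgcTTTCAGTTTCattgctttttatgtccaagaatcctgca
Mlkl, chr19:56213859-56213918, minus strand: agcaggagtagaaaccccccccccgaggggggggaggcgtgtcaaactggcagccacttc
Pycard, chr1:192033420-192033479, minus strand: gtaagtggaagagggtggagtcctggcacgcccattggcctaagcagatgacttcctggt
The matched bases were the same in Casp1, where they began 28 bases before the start, and in Casp12, where they began 38 bases before it. They were part of a run of 14 bases, TGCTTTCAGTTTCA, the longest shared by both windows. A GAS-like motif, written TTCNNNGAA and bound by STAT dimers, was found in the windows of Nlrp3 and Casp12 and in 8.87% of all windows, overlapping none of the ISRE-like matches in Casp12. The NF-κB consensus was found in 0 of the 7 windows and in 7.51% of all windows. A match is only a run of letters, and binding was not measured.

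The neighbouring caspase genes moved in opposite directions. Casp1, the protease of the inflammasome, was at 6.80, 7.51 and 5.54 CPM in Vector replicates 1, 2 and 3 and at 13.3, 14.7 and 12.0 CPM in the libraries labelled FTO. Each library labelled FTO lay above each Vector library. The rise was 2.0-fold (95% confidence interval 1.64 to 2.44), a log2FC of 1.0 (SE 0.134, edgeR adjusted p = 8.8e-06). It rested on 80 to 215 counts per library and lay at the edge of the study's threshold. Without Vector replicate 3 its log2FC was 0.89, without FTO replicate 2 it was 0.93, and without FTO replicate 1 it fell just short of 1, so that 2 of the 10 genes passed.

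Casp4, the rodent caspase-11 gene, fell from 77.0, 73.7 and 72.7 CPM in Vector to 51.0, 47.0 and 42.8 CPM in the libraries labelled FTO. The groups were well apart, and the fall was 1.59-fold, a log2FC of -0.67 (SE 0.0655, edgeR adjusted p = 3.0e-07). Casp12, a further member of the inflammatory caspase family that has been linked to the endoplasmic reticulum, was at 59.3, 50.5 and 56.9 CPM in Vector. It was at 41.2, 40.2 and 40.8 CPM after FTO-labelled transfection, values nearly equal among themselves and all below Vector. The log2 fold change was -0.45 (SE 0.0670, edgeR adjusted p = 3.0e-05), a 1.36-fold fall. The 95% confidence intervals were 0.72 to 1.29 for Casp1, -0.81 to -0.53 for Casp4 and -0.59 to -0.30 for Casp12 on the log2 scale, so the interval of Casp1 did not meet those of its neighbours while the intervals of Casp4 and Casp12 did meet. The genes are related in sequence, and how reads that map to several places were counted is not given in the sources used here.

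**Figure D3:**
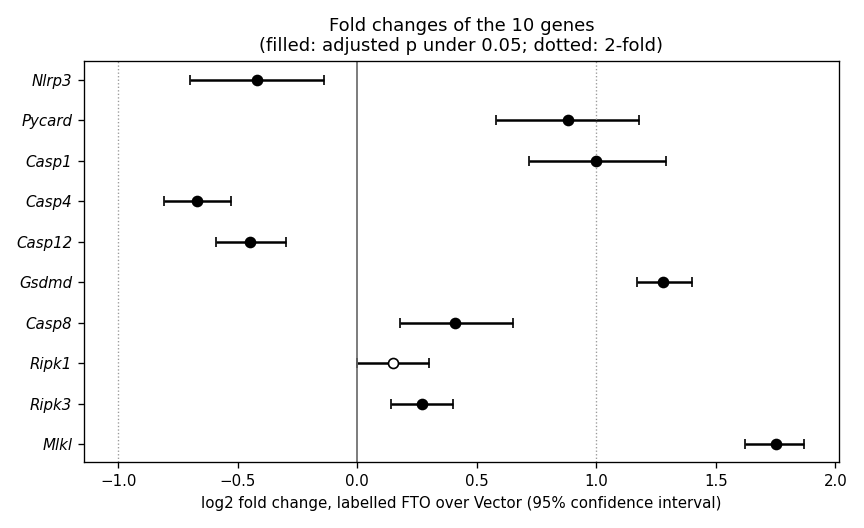
log2FC of each of the 10 genes (libraries labelled FTO over Vector), with its 95% confidence interval. Filled points passed an adjusted p-value of 0.05 in edgeR and the open point, Ripk1, did not. Mlkl at 1.75 and Gsdmd at 1.28 lie past the dotted 2-fold line, Casp1 lies on it at 1.0, and Casp4 is the lowest at -0.67.

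The sensor and the adaptor of the NLRP3 inflammasome also moved apart. Nlrp3 was at 10.4, 11.9 and 11.9 CPM in Vector and at 9.05, 9.74 and 7.15 CPM in the libraries labelled FTO. The groups did not overlap, but the gap between the lowest Vector library and the highest library labelled FTO was narrow. The log2 fold change was -0.42 (SE 0.131, edgeR adjusted p = 0.0114), from 128 to 178 counts per library. The call was lost without FTO replicate 3, where the log2FC was -0.29 (edgeR adjusted p = 0.0572), and the 13 alternatives gave adjusted p from 0.00292 to 0.0572. Pycard rose from 6.15, 6.71 and 5.75 CPM to 11.3, 13.4 and 9.77 CPM, with every library labelled FTO above Vector. Its change was 1.84-fold, a log2FC of 0.88 (SE 0.141, edgeR adjusted p = 5.9e-05). Macrophage markers, whose cells also express these genes, fell as a sum in the same libraries (above). The part of macrophages in the changes of Nlrp3, Pycard, Casp1 and the other genes reported here was not tested.

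Gsdmd, the pore-forming substrate of caspase-1 and caspase-11, was among the genes of the set with the largest rise. Its level was 63.4, 68.0 and 71.7 CPM in Vector and 171, 165 and 158 CPM in the libraries labelled FTO. The ranges were far apart compared with the spread inside each group. The rise was 2.43-fold (95% confidence interval 2.24 to 2.63), a log2FC of 1.28 (SE 0.0541, edgeR adjusted p = 1.1e-11). Of all tested genes 8.11% had a higher log2FC. The counts do not show whether the protein was cut.

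Among Ripk1, Ripk3 and Mlkl, the rise was largest for Mlkl. Mlkl, which encodes the protein that breaks the membrane, was at 27.1, 28.1 and 29.3 CPM in Vector and at 92.9, 92.3 and 98.8 CPM in the libraries labelled FTO. Libraries of a group were close to each other and the groups were far apart. The rise was 3.36-fold (95% confidence interval 3.08 to 3.67), a log2FC of 1.75 (SE 0.0592, edgeR adjusted p = 7.4e-13), and 5.49% of all tested genes had a higher one.

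Ripk3, the kinase that activates MLKL, was at 39.2, 35.9 and 37.2 CPM in Vector and at 45.9, 45.5 and 44.1 CPM in the libraries labelled FTO. The groups did not overlap but the step was small, 1.21-fold (95% confidence interval 1.10 to 1.32), with a log2FC of 0.27 (SE 0.0621, edgeR adjusted p = 0.00135). Its interval did not meet that of Mlkl. Ripk1, the kinase above RIPK3, was at 67.2, 69.2 and 59.9 CPM and at 70.3, 67.4 and 79.2 CPM. Here the groups overlapped, since FTO replicate 2 lay below Vector replicate 2. The log2FC was 0.15 (SE 0.0705, edgeR adjusted p = 0.0795), and the fold change had a 95% confidence interval of 0.997 to 1.23. Without FTO replicate 2 it passed, with a log2FC of 0.20 (edgeR adjusted p = 0.0136), and the 13 alternatives gave 0.0136 to 0.364.

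Casp8, the initiator caspase of death receptors and the brake on necroptosis, was at 11.9, 10.9 and 10.5 CPM in Vector and at 15.9, 15.3 and 13.2 CPM in the libraries labelled FTO. All libraries labelled FTO were above Vector, the nearest being FTO replicate 3. The log2 fold change was 0.41 (SE 0.109, edgeR adjusted p = 0.00376), a 1.33-fold rise. Cflar encodes cFLIP, the partner that limits caspase-8 activity, and in the RefSeq table it is a protein-coding neighbour of Casp8 on chromosome 9. It rose more, from 23.6, 21.2 and 23.8 CPM to 65.9, 67.1 and 70.9 CPM, a log2FC of 1.58 (SE 0.0668, edgeR adjusted p = 1.2e-11). Fadd, the adaptor that joins caspase-8 to death receptors, was lower, at 29.3, 30.1 and 30.5 CPM against 20, 22.8 and 22.2 CPM. Its log2FC was -0.47 (SE 0.0766, edgeR adjusted p = 7.3e-05).

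**Figure D4:**
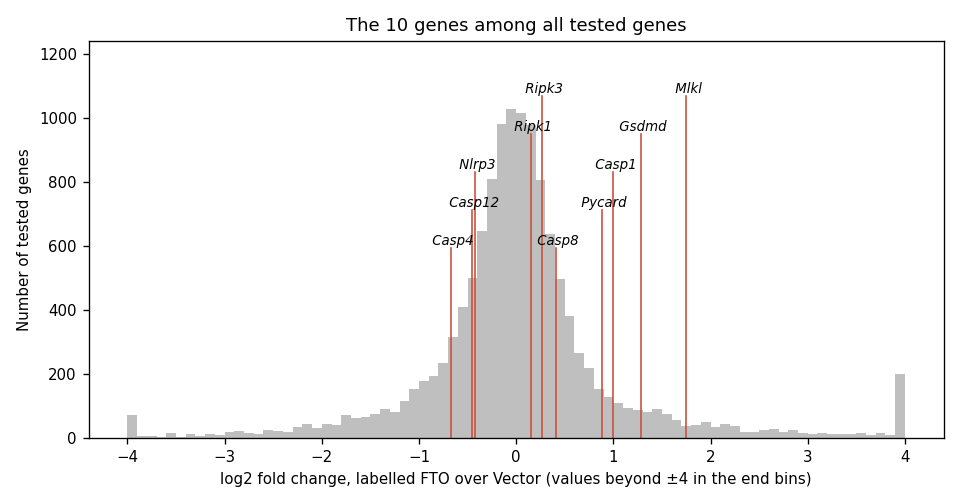
Histogram of the log2 fold change of all 12941 tested genes (grey, number of genes per bin of 0.1, values beyond ±4 in the end bins), with the 10 genes as red lines whose height carries no value. Mlkl, at 1.75, has 5.49% of the tested genes above it, and Casp4, at -0.67, has 14.6% below it.

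Other sensors and regulators of inflammasomes were compared as a list. Of 27 in the files 20 were tested, and 11 rose, 5 fell and 4 did not pass the test, with a median log2FC of 0.34. That is 80.0% called, against 65.9% of all tested genes (33.2% higher and 32.8% lower). Aim2, the sensor of cytosolic DNA, had 8, 4 and 3 counts in the Vector libraries and 270, 240 and 317 counts in the libraries labelled FTO. This is 0.585, 0.268 and 0.208 CPM against 18.9, 18.1 and 17.7 CPM, a log2FC of 5.67 (SE 0.211, edgeR adjusted p = 2.5e-12) whose size rests on the few Vector counts. Gbp5, a guanylate-binding protein that promotes NLRP3 assembly, rose from 5.63, 5.84 and 6.51 CPM to 270, 216 and 243 CPM. Its log2FC was 5.34 (SE 0.0970, edgeR adjusted p = 4.4e-16), and counts within the Gbp family are uncertain where copies share sequence.

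The sensors of bacterial flagellin and secretion systems moved the other way. Naip6 fell from 5.49, 4.76 and 5.54 CPM to 1.12, 0.453 and 0.503 CPM, with a log2FC of -2.93 (SE 0.273, edgeR adjusted p = 1.7e-07), and as a member of the Naip family it is subject to the same doubt. Nlrc4, with which NAIP proteins assemble, fell from 2.93, 3.56 and 4.78 CPM to 1.75, 1.59 and 1.95 CPM, with a log2FC of -1.08 (SE 0.233, edgeR adjusted p = 8.4e-04). Both were measured from few reads, with means of 42.8 counts for Naip6 and 40.5 counts for Nlrc4. Nek7, the kinase that NLRP3 binds when it assembles, fell from 90.6, 95.4 and 94.5 CPM to 41.9, 40.6 and 52.0 CPM (log2FC -1.05, SE 0.0774, edgeR adjusted p = 1.0e-08). Txnip, which has been described as an activator of NLRP3, rose from 149, 143 and 141 CPM to 249, 244 and 246 CPM (log2FC 0.78, SE 0.0420, edgeR adjusted p = 2.4e-10). The ATP receptor gene P2rx7 was measured at 1.80 ± 0.463 and 1.87 ± 0.610 CPM (SD, n = 3 each), and did not pass (edgeR adjusted p = 0.951). Nlrp1b, Nlrp6, Nlrp10, Nlrp12, Mefv, Nlrc3 and Trim31 had too few counts to be tested.

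The cytokines released through gasdermin pores did not move together. Il1b, the main product of caspase-1, had 10, 7 and 1 counts in Vector and 507, 523 and 624 counts in the libraries labelled FTO, or 0.732, 0.470 and 0.0693 CPM against 35.6, 39.5 and 34.8 CPM. The log2 fold change was 6.42 (SE 0.214, edgeR adjusted p = 6.0e-13). Without Vector replicate 1, the library with the most Il1b counts in its group, it was 7.02, and it ran from 5.92 to 7.02 over the alternatives. Il1a, which is released by lysis without needing caspase-1, had 2 counts over the 3 Vector libraries and 1355 over the 3 libraries labelled FTO, at 30.6, 29.9 and 29.2 CPM in the latter. The ratio was 643, with an exact binomial 95% interval of 178 to 5315 that covers counting error only. Il18, the other cytokine that caspase-1 matures, fell from 10.7 ± 0.613 CPM to 5.58 ± 0.864 CPM (SD, n = 3 each), from no fewer than 145 counts in each Vector library to no more than 86 in each library labelled FTO with no overlap in CPM (log2FC -0.95, SE 0.138, edgeR adjusted p = 2.2e-05).

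Of 14 substrates and inhibitors in the files 12 were tested, and 9 rose, 2 fell and 1 did not pass the test, with a median log2FC of 0.90. The share called was 91.7%, beside 65.9% of all tested genes (33.2% higher and 32.8% lower). The genes for the soluble antagonists rose, Il1rn from 15.7 ± 2.06 to 146 ± 5.43 CPM and Il18bp from 5.52 ± 0.351 to 21.0 ± 0.303 CPM (SD, n = 3 each). Serpinb1a, an inhibitor of neutrophil proteases that also restrains inflammatory caspases, was the other gene that fell, from 6.58, 6.71 and 6.86 CPM to 2.10, 3.25 and 2.51 CPM. Its log2FC was -1.36 (SE 0.174, edgeR adjusted p = 5.6e-06). Ninj1, which ruptures the membrane after pores have formed, rose from 119, 114 and 117 CPM to 152, 157 and 139 CPM (log2FC 0.35, SE 0.0516, edgeR adjusted p = 2.2e-05). Gsdme, another gasdermin gene, listed under its older symbol Dfna5, was at 2.11 ± 0.275 and 2.94 ± 0.783 CPM and did not pass (edgeR adjusted p = 0.0832). It passed without FTO replicate 2, at 0.0151, and the 13 alternatives gave 0.0151 to 0.251. Gsdma and Dfnb59, the other gasdermin family genes listed, had too few counts to be tested.

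**Figure D5:**
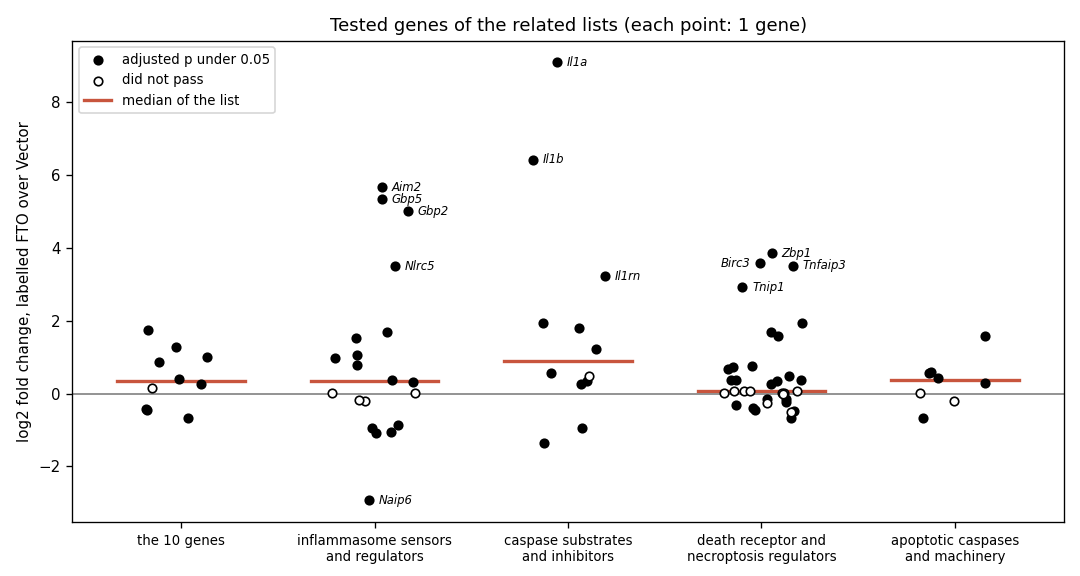
log2FC of the tested genes of the set and of 4 related lists, with 1 point per gene (filled where the adjusted p-value in edgeR was under 0.05) and the median of each list in red. The cytokine genes Il1a and Il1b and the regulators Aim2, Gbp5 and Gbp2 lie highest, Naip6 lies lowest, and the apoptotic list stays between -0.68 and 1.59.

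Regulators of death receptors and necroptosis formed the longest list. Of 39 in the files 34 were tested, and 16 rose, 8 fell and 10 did not pass the test, with a median log2FC of 0.08. With 70.6% called, the list was close to the 65.9% of all tested genes (33.2% higher and 32.8% lower). Zbp1, a sensor of Z-form nucleic acids that can engage RIPK3 without RIPK1, had 1, 6 and 2 counts in Vector and 54, 46 and 41 in the libraries labelled FTO. The level remained low, at 3.79, 3.47 and 2.29 CPM in the latter, and the log2FC was 3.85 (SE 0.430, edgeR adjusted p = 1.3e-06). Its size rested on Vector replicate 2, without which it was 4.77, and it ran from 3.48 to 4.77 over the alternatives. Birc3 encodes cIAP2, a ubiquitin ligase that holds RIPK1 in its survival complex. It rose from 7.68, 5.57 and 5.96 CPM to 76.5, 71.4 and 80.9 CPM (log2FC 3.58, SE 0.0977, edgeR adjusted p = 5.3e-14). Tnfaip3 encodes A20, which edits ubiquitin chains on RIPK1 and RIPK3, and rose from 8.78, 7.92 and 8.59 CPM to 102, 92.6 and 93.5 CPM (log2FC 3.51, SE 0.0752, edgeR adjusted p = 2.9e-15).

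The receptor gene Tnfrsf1a, which encodes TNF receptor 1, changed less. It was at 227, 214 and 212 CPM in Vector and at 285, 279 and 273 CPM in the libraries labelled FTO, a log2FC of 0.35 (SE 0.0429, edgeR adjusted p = 3.2e-06). Traf5, an adaptor of TNF-family receptors, fell from 16.5, 18.7 and 17.0 CPM to 12.1, 9.21 and 11.0 CPM (log2FC -0.68, SE 0.111, edgeR adjusted p = 6.6e-05). For the deubiquitinase gene Cyld, which favours necroptosis, and the adaptor gene Tradd, log2 fold changes were 0.08 (SE 0.0803) and 0.02 (SE 0.0949), and neither passed. Tnf was listed at 0 in all 6 libraries. A listed 0 is weak evidence here, since Hsp90aa1, a chaperone gene that every cell uses, had 1 count in FTO replicate 2, 2 counts in FTO replicate 3 and 0 in the other libraries. Low levels may carry the same doubt, and so may the list counts that include them. Hmgb1, counted above among the substrates and inhibitors that rose, was at only 2.11 and 3.15 CPM on average.

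Among apoptotic caspases and their machinery 8 of 9 genes were tested, and 5 rose, 1 fell and 2 did not pass the test, with a median log2FC of 0.37. This was 75.0% of 8 genes, where 65.9% of all tested genes were called (33.2% higher and 32.8% lower). Bid, which links caspase-8 to the mitochondrion, rose from 28.7, 26.3 and 29.6 CPM to 83.1, 91.0 and 81.1 CPM (log2FC 1.59, SE 0.0670, edgeR adjusted p = 1.1e-11). Apaf1, the scaffold of the apoptosome, fell from 65.0, 69.9 and 67.2 CPM to 44.4, 37.5 and 44.1 CPM (log2FC -0.68, SE 0.0684, edgeR adjusted p = 4.2e-07). Casp6 was listed at 0 in all 6 libraries.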

How the data were processed

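RNA-seq was performed on 6 NRCF samples, 3 per group by genotype label, with replicate numbers from the titles. Raw read counts for each gene symbol were deposited by the authors, with a separate table per library. The submitters' processing notes name Trimmomatic and genome build rn6. The aligner, counter, annotation and strand setting are not given in the sources used here. Of 21857 symbols, 4691 had no count. Genes were filtered with filterByExpr (minimum count 10), scaled by TMM and compared with the quasi-likelihood test of edgeR 4.0.16 in R 4.3.3 (two-sided, no covariate). Adjusted p-values (Benjamini-Hochberg) covered the 12941 genes tested. CPM are TMM-normalized, given per library or as mean ± SD, and 3 counts were worth 0.168 to 0.227 CPM. Counts carry no molecular identifiers, so intervals cover counting error and replicate spread only.

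The members, the 4 related lists and the marker lists were chosen with earlier results of these data known. Genes named beside the members were from 16 fixed partners, of which some are not reported here, and, per related list, the 2 largest increases and 2 largest decreases that passed the test without overlap of the groups and averaged 20 counts or more. Il1rn, Il18bp, P2rx7, Cyld, Tradd, Tnf, Hsp90aa1, Casp6, Gbp2, Fcgr2b, Marco, C1qb, C1qc, Col1a1, Dcn, Lum, Pdgfra, Cd4, S100a8 and genes with too few counts were named after their values were seen. The same holds for Tnnt2, Erg, Tie1 and Hmgb1. Naip2, Chmp4b, Ticam1 and Itgam are not analysed here. Alternatives were DESeq2 1.42.0, limma-voom (limma 3.58.1), other scalings, other filters, the replicate number as a block, and fits without single libraries. The scripts were checked on simulated counts. Counts within each group differed by more than sampling noise (chi-square per degree of freedom 1.56 to 8.02). Whether that spread is technical is not known.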

Additional observations from a re-analysis of the deposited data

How the results depend on the processing

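Over 13 alternatives, 34 single genes were followed, and 3 changed their call in 1 alternative each, with 0 changes of direction. Nlrp3 was lost without FTO replicate 3 (log2 fold change -0.29, and -0.51 to -0.29 over the fits without a single library). Ripk1 passed without FTO replicate 2 (0.20, and 0.07 to 0.20 over these fits), as did Dfna5 (0.68). Of the 10 genes, 6 to 7 were called higher and 2 to 3 lower in every alternative, and 2 to 3 passed the study's threshold, Casp1 being the gene at its edge. The number of apoptotic genes called lower was 2 with limma-voom and 2 without a filter on low counts, and 1 to 2 over the fits without a single library, against 1. The cause was not tested.

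Replicate numbers showed no pairing, but 3 libraries per group are too few to exclude one. Across genes, same-numbered libraries deviated from their groups with correlations of 0.00628, -0.0869 and 0.0440, and only Vector replicate 3 correlated best with its own number. A fit with a replicate block called 8399 genes in place of 8531, with 6 of the 10 genes higher and 3 lower, and changed no call of the genes followed. Depth limits Il1a, Aim2, Il1b and Zbp1, whose Vector levels rest on 10 counts or fewer per library.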
